A study of Mus musculus with 2 samples.

Results

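The mitochondrial carrier family is a family of related transporters, most of which lie in the inner mitochondrial membrane. Its members were chosen by name, as non-control probes whose gene name in both scanner files was Slc25a followed by a number, or Ucp1, Ucp2 or Ucp3. This gave 108 probes of 50 genes, out of 56599 probes and 37148 gene names on the array. Of the 50 carriers, 45 had a probe well above background on at least 1 array. Slc25a2, Slc25a21, Slc25a31, Slc25a54 and Ucp1 had none on either array and were not compared.

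The study used 2 one-colour Agilent expression arrays, 1 for a neurosphere culture and 1 for the VZ/SVZ, that is, the ventricular-subventricular zone, where stem cells line the lateral ventricles of the brain. A neurosphere is a floating cluster grown from neural stem and progenitor cells. Both samples were β-galactosidase-positive cells of C57BL/6 mice aged 6 months and heterozygous for Ecrg4, so neither group was free of the targeted allele. Per the growth protocol, both were kept in DMEM/F12 with bFGF, EGF and heparin, so the VZ/SVZ sample was not described there as fresh tissue. How positive cells were picked, how long they were cultured and how many animals gave each sample is not stated in the labels.

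Carriers are built from repeats of a common domain and exchange small molecules between the cytosol and the mitochondrial matrix, most of them by swapping one substrate for another. They bring ADP, phosphate, carboxylic acids, amino acids and cofactors into the organelle and send out ATP and biosynthetic intermediates. In neural cells they are known for the malate-aspartate shuttle, for glutamate transport and for supplying mitochondria with iron and glutathione. The uncoupling proteins are carriers that can pass protons or anions across the inner membrane.

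Each carrier gene is described by its brightest probe, and its level is the log2 processed signal minus the 75th percentile of its array. A difference is the level in VZ/SVZ minus the level in the neurosphere, so values below 0 belong to carriers that were brighter in the neurosphere. The value after ± is the technical error that the scanner software's error model gives; it does not cover the spread between animals, cultures or labellings. Each group has a single array, so replicates are lacking, precision is limited by the number of arrays, and no difference was tested. A size of 2-fold was used to count differences. Because these are bulk samples, fewer cells of a type and less RNA per cell cannot be told apart. Each carrier probe had 1 spot, none of these spots was saturated or marked as an outlier, and the 2 arrays had similar 75th percentiles of signal (99.42 for the neurosphere, 106.1 for VZ/SVZ). Ecrg4, the targeted gene, had a signal of 351 in the neurosphere and 34.0 in VZ/SVZ. Its probe was not placed relative to the targeted part of the gene, so these values do not check the genotype.

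More carriers were lower than higher in VZ/SVZ. The VZ/SVZ array was the higher by 2-fold or more for 6 of 45 carriers, or 13.3%, where 18.7% of all 26434 measured genes passed this size. The neurosphere array was the higher for 9 of 45, or 20.0%, where 11.1% of all genes passed. With quantile normalization 4 and 8 carriers passed, beside 14.8% and 13.7% of all genes. The all-gene shares include 3234 genes dim in the neurosphere and 1293 dim in VZ/SVZ. Of the carriers, only Slc25a43 was dim on an array, the neurosphere. When any probe dim on an array was left out, 5 and 9 of 44 carriers passed, beside 14.4% and 11.6% of all genes. The gap towards VZ/SVZ was thus smaller. The order of the counts turned when each gene took the median of its probes: 7 carriers then passed towards VZ/SVZ and 6 towards the neurosphere, beside 18.3% and 10.2% of all genes. The median difference was -0.30 over the carriers and 0.04 over all genes, and 31 of the 45 carriers (68.9%) lay below 0 against 48.5% of all genes. Without the probes dim on an array, these medians were -0.30 and -0.05. Among the 44 carriers well above background on both arrays, 19 were lower and 7 higher in VZ/SVZ by more than 2 technical errors. The other 18 lay within that range. The share of all genes beyond 2 technical errors is not given here, so these counts have no background to be read against.

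**Figure D1:**
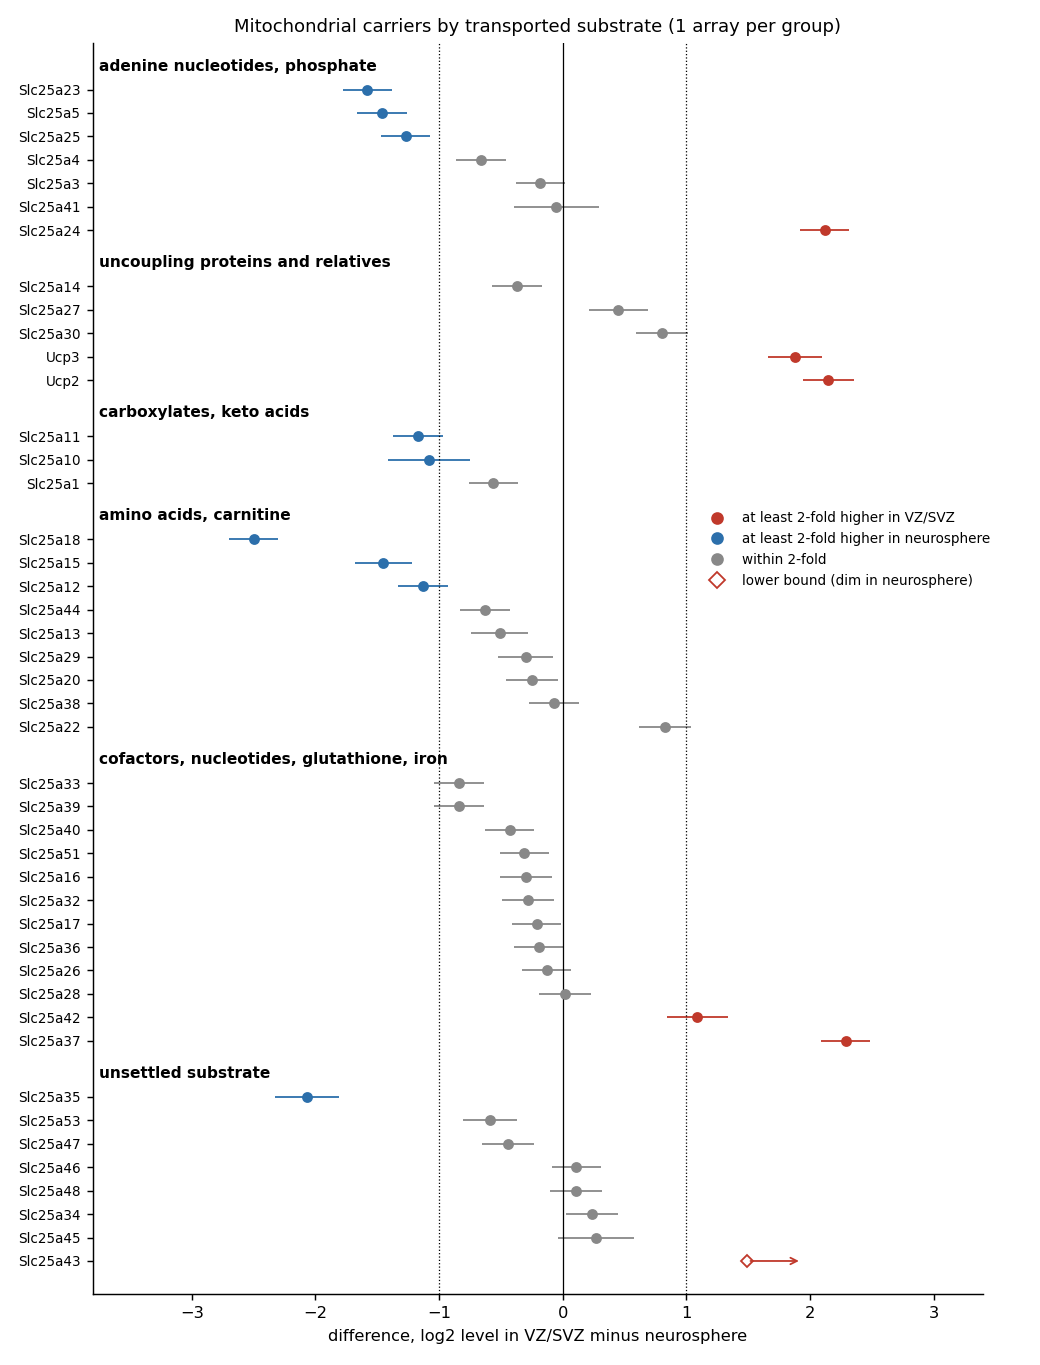
Difference of the measured carriers named in the text, as log2 level in VZ/SVZ minus neurosphere, grouped by what they transport. Bars are technical errors, dotted lines mark 2-fold and the open diamond with an arrow is a lower bound. The points run from -2.50 for Slc25a18 to 2.29 for Slc25a37, and the uncoupling proteins Ucp2 and Ucp3 lie to the right while the measured carboxylate carriers all lie to the left.

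Among carriers of adenine nucleotides and phosphate, 7 of 8 were measured. Their median was -0.66; 3 passed 2-fold towards the neurosphere and 1 towards VZ/SVZ. Slc25a5, which encodes the ADP/ATP translocase ANT2 that is known from dividing cells, had a signal of 4053 in the neurosphere and 1573 in VZ/SVZ (difference -1.46 ± 0.20, 2.75-fold). Its 1 probe lies at chrX:34338561-34338620 (mm9, plus strand). Slc25a4, which encodes ANT1, the translocase of heart, muscle and brain, had 13858 in the neurosphere and 9393 in VZ/SVZ, a difference of -0.66 ± 0.20 that stayed within 2-fold. Both translocases were thus higher on the neurosphere array, Slc25a5 by the larger factor. Slc25a3, the phosphate carrier that supplies ATP synthase, lay close to 0 at -0.18 ± 0.20.

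The calcium-regulated ATP-Mg/phosphate carriers, which adjust the matrix pool of adenine nucleotides, did not share a direction. Slc25a23 had a signal of 1528 in the neurosphere and 547 in VZ/SVZ (-1.58 ± 0.20, 2.98-fold; chr17:57183867-57183926, mm9, minus strand). Slc25a25 had 1181 and 524 (-1.27 ± 0.20, 2.41-fold; chr2:32270275-32270334, mm9, minus strand), and with the median over its 4 probes the difference was -0.89. Slc25a24 had the opposite order, 105 in the neurosphere and 488 in VZ/SVZ (2.12 ± 0.20, 4.36-fold; chr3:108971266-108971325, mm9, plus strand). So the same class held a carrier among the highest in VZ/SVZ and 2 that were higher in the neurosphere. Slc25a41, the relative without calcium-binding domains, was faint on both arrays, with 8.98 and 9.29 (-0.05 ± 0.34).

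Of the uncoupling proteins and their close relatives, 5 of 6 were measured, 2 passed 2-fold towards VZ/SVZ, none did towards the neurosphere and the median was 0.80. Ucp2, an uncoupling protein found in many tissues and known to export C4 metabolites, had a signal of 41.6 in the neurosphere and 198 in VZ/SVZ (2.15 ± 0.21, 4.45-fold; chr7:107647809-107647868, mm9, plus strand). Its other probe gave 1.90. Ucp3, the form best known from skeletal muscle, had 21.9 and 86.1 (1.88 ± 0.22, 3.69-fold; chr7:107630399-107630458, mm9, plus strand). With normexp background correction, which adds an offset to the signals, Ucp2 was at 1.37 and Ucp3 at 0.82, under 2-fold. Slc25a30 (0.80 ± 0.21) pointed the same way within 2-fold. Slc25a27, the brain-expressed UCP4, did so by its brightest probe (0.45 ± 0.24) and not by its other probes, at -0.17 and -0.45. Slc25a14, also called UCP5, pointed towards the neurosphere (-0.37 ± 0.20) by its brightest probe and not by its second, at 0.85. Ucp1, the heat-producing protein of brown fat, was not well above background on either array. Of the brown fat markers, Fabp4 (6.91 in the neurosphere and 55.3 in VZ/SVZ) and Cidea (11.6 and 30.1) were higher in VZ/SVZ. Plin1 lay within 2-fold, and Adipoq was dim in the neurosphere, with 5.42 there and 8.82 in VZ/SVZ. Elovl3 was not well above background on either array. Fabp4 is also expressed outside fat, and the part of these markers in the Ucp2 and Ucp3 values was not tested.

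**Figure D2:**
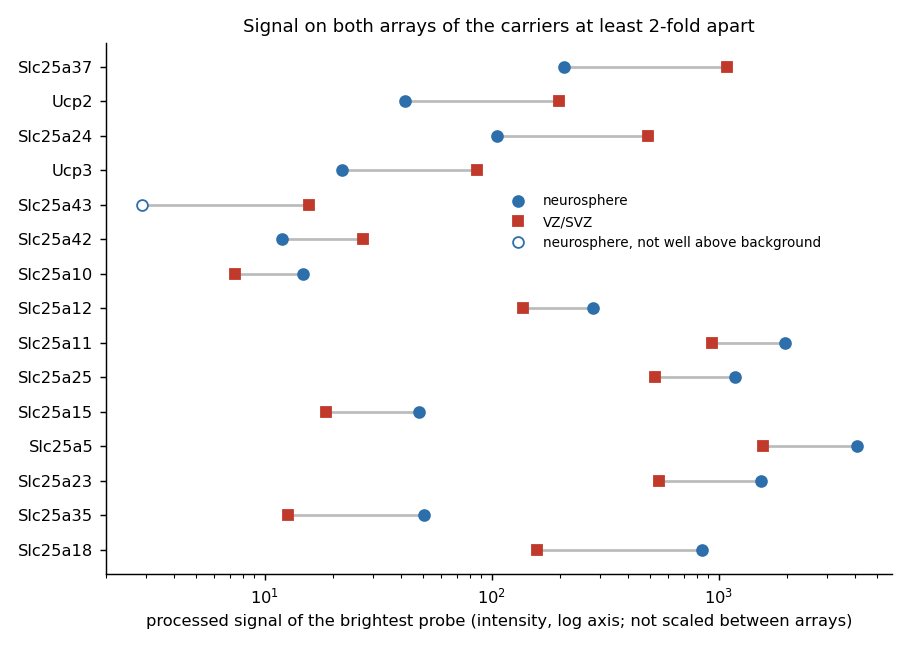
Processed signal of the brightest probe on the neurosphere array (circles) and the VZ/SVZ array (squares) for the 15 carriers at least 2-fold apart, on a log axis and not scaled between arrays. Slc25a43 is the only one of them not well above background on 1 array, with 2.87 in the neurosphere. Slc25a10, Slc25a42 and Slc25a43 have signals below 30 on both arrays.

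Each of the 3 measured carriers of carboxylates and keto acids was higher on the neurosphere array, 2 of them by 2-fold or more, and none lay above 0 (median -1.08). Slc25a11, the oxoglutarate/malate carrier of the malate-aspartate shuttle, had a signal of 1960.5 in the neurosphere and 930.2 in VZ/SVZ (-1.17 ± 0.20, 2.25-fold; its brightest probe spans chr11:70458409-70458585, mm9, minus strand). With quantile normalization the value was -0.90 and with the median over its 2 probes -0.96. Slc25a10, the dicarboxylate carrier, was faint, with 14.7 and 7.42 (-1.08 ± 0.33, 2.12-fold; chr11:120359439-120359498, mm9, plus strand), and with normexp the difference was -0.23. Slc25a1, which exports citrate for fatty acid and sterol synthesis, had 1412 and 1021 (-0.56 ± 0.20). Slc25a21, the oxodicarboxylate carrier, was the unmeasured member.

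The carriers of amino acids and carnitine were lower in VZ/SVZ in 8 of 9 measured genes, with a median of -0.51. Of the 9, 3 passed 2-fold, all towards the neurosphere. With normexp the median was -0.18 and 1 passed. With the median over probes it was -0.30, and 2 passed towards the neurosphere and 1 towards VZ/SVZ. Slc25a18, a glutamate carrier with high expression in astrocytes, showed the largest absolute difference of all 45 carriers. Its signal was 846 in the neurosphere and 159 in VZ/SVZ (-2.50 ± 0.20, 5.67-fold; chr6:120743828-120743887, mm9, plus strand), and its other probe gave -1.99. Slc25a22, which encodes the other mitochondrial glutamate carrier, had the opposite order, with 41.6 and 78.9 (0.83 ± 0.21), and 1 of its 3 probes reached 1.48. The 2 glutamate carriers thus stood on opposite sides, one beyond and one within 2-fold.

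Slc25a12, the aspartate/glutamate carrier aralar of the malate-aspartate shuttle in brain and muscle, had 279.6 in the neurosphere and 137 in VZ/SVZ (-1.13 ± 0.20, 2.19-fold; chr2:71112979-71113038, mm9, minus strand). All 5 of its measured probes lay between -1.49 and -0.84, and the value was -0.89 with normexp and -0.98 with the median over probes. Slc25a13, which encodes citrin, the form that predominates in liver, was at -0.51 ± 0.23. Slc25a15, the ornithine carrier of the urea cycle, had 47.8 and 18.7 (-1.45 ± 0.23, 2.74-fold; chr8:23487872-23487931, mm9, minus strand), or -0.52 with normexp. Within 2-fold lay Slc25a44, a carrier of branched-chain amino acids (-0.63 ± 0.20), Slc25a29, a carrier of basic amino acids (-0.30 ± 0.22), Slc25a20, the carnitine/acylcarnitine carrier of fatty acid oxidation (-0.25 ± 0.21), and Slc25a38, linked to glycine import for heme synthesis (-0.07 ± 0.20). Slc25a2, the second ornithine carrier, was not measured.

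All 13 carriers of cofactors, nucleotides, glutathione and iron were measured. The 2 that passed 2-fold did so towards VZ/SVZ, although 10 of the 13 lay below 0 and the median was -0.28 (-0.03 when each gene took the median of its probes). Slc25a37, which encodes mitoferrin-1, the iron importer best known from red cell precursors, had a signal of 208 in the neurosphere and 1083 in VZ/SVZ (2.29 ± 0.20, 4.88-fold; chr14:69863195-69863254, mm9, minus strand). Its other 2 probes bright on both arrays gave 2.59 and 2.78, and the fourth, dim in the neurosphere, gave at least 0.93. Slc25a28, which encodes mitoferrin-2, the widely expressed form, had 88.9 and 96.3 (0.02 ± 0.21). Of the 2 mitoferrins, 1 was thus past 2-fold and 1 lay within its technical error of 0.

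Of 5 erythroid markers, Alas2, Slc4a1 and Hba-a1 were measured and all lay within 2-fold, from -0.35 to 0.46, and Hbb-b1 was well above background on neither array. The summed level of this list was 0.503 in the neurosphere and 0.572 in VZ/SVZ, in multiples of the array's 75th percentile. Slc25a42, the coenzyme A carrier, was faint, with 11.9 and 27.1 (1.09 ± 0.25, 2.14-fold; chr8:72716269-72716328, mm9, minus strand), and was at 0.23 with normexp and 0.70 with quantile normalization. Another probe, dim in the neurosphere, gave at least 2.07, and its probe for the RefSeq transcript was well above background on neither array.

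The other members of this class stayed within 2-fold. The glutathione carriers Slc25a39 (3008 in the neurosphere and 1799 in VZ/SVZ, -0.84 ± 0.20) and Slc25a40 (-0.43 ± 0.20) were both lower in VZ/SVZ by their brightest probes. The probes of Slc25a40 ran from -0.84 to 0.31 or more, the last dim in the neurosphere. Slc25a40 was at -0.20 with quantile normalization and at -0.22 with the median over probes. The pyrimidine nucleotide carrier Slc25a33 was at -0.84 ± 0.20 and its relative Slc25a36, by its brightest probe, at -0.19 ± 0.20. Other Slc25a36 probes gave 2.16, 1.23, -0.03 and, dim in VZ/SVZ, -0.54 or below. Slc25a51, the NAD carrier, was at -0.31 ± 0.20, Slc25a16 at -0.30 ± 0.21 and Slc25a32, the folate carrier, at -0.28 ± 0.21. Slc25a17, the peroxisomal member of the family (-0.21 ± 0.20), and Slc25a26, which imports S-adenosylmethionine (-0.13 ± 0.20), also lay close to 0.

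Of the carriers whose substrate is less settled, 8 of 9 were measured, with 1 at 2-fold on each side and a median of 0.11, or -0.16 with quantile normalization and -0.03 with the median over probes. Slc25a35 had 50.1 in the neurosphere and 12.7 in VZ/SVZ (-2.07 ± 0.26, 4.21-fold; chr11:68785799-68785858, mm9, plus strand). The difference was -0.67 with normexp and -0.95 with the median over its 2 measured probes. Slc25a43 was not well above background in the neurosphere (2.87) and had 15.6 in VZ/SVZ, which gives at least 2.81-fold (bound of 1.49), counting the dim side at the lowest level that was well above background on that array. With normexp it was at 0.20 and with quantile normalization at 0.97. Within 2-fold lay Slc25a53 (-0.59 ± 0.22, with another probe at -1.87), Slc25a47 (-0.44 ± 0.21), Slc25a34 (0.24 ± 0.21), Slc25a45 (0.27 ± 0.31), Slc25a48 (0.11 ± 0.21) and Slc25a46, an outer membrane member tied to mitochondrial shape (0.11 ± 0.20).

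Several probes of the same carrier did not always give the same picture. Of 29 carriers with at least 2 measured probes, 18 had all probes on the same side of 0, and the median SD between the probes of a carrier was 0.36. In 5 carriers a probe at 2-fold or more was opposed by another probe of the gene. Slc25a23 was the only carrier with probes past 2-fold on both sides: the brightest 2 gave -1.58 and -1.66, and a faint probe for another transcript model gave 1.63 (9.15 in the neurosphere and 30.2 in VZ/SVZ; chr17:57195712-57195771, mm9, minus strand). Slc25a36 ran from -0.54 or below, for a probe dim in VZ/SVZ, to 2.16 over 5 probes. Its probe at 2.16 had a signal of 92.2 in the neurosphere and 439.8 in VZ/SVZ and lies at chr9:96992092-96992151 (mm9, minus strand). Slc25a13 had a probe for a predicted transcript, dim in the neurosphere, at 2.71 or more. Slc25a16 had a probe dim in the neurosphere at 1.70 or more, and Slc25a35 one at 0.17 or more. Which exon or untranslated region each probe lies in was not assigned here.

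**Figure D3:**
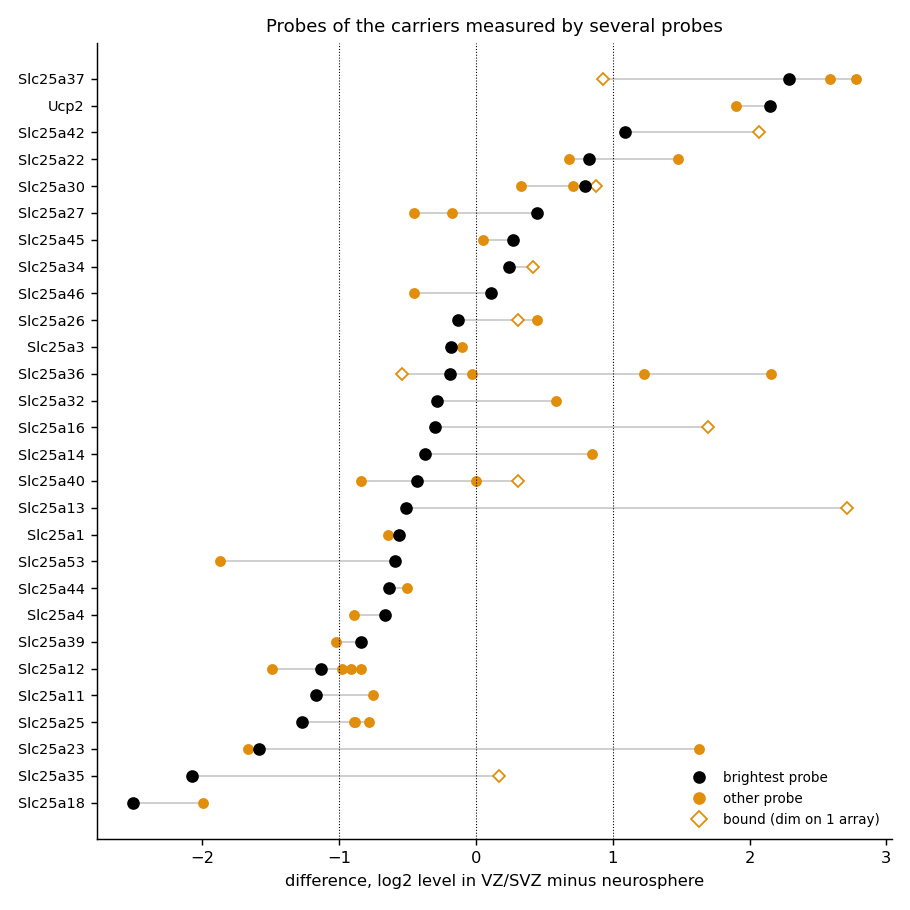
Difference given by each measured probe (log2 level, VZ/SVZ minus neurosphere) for the carriers named in the text that had several measured probes, with the brightest probe in black, other probes in orange and bounds as open diamonds. The probes of Slc25a37, Ucp2, Slc25a12 and Slc25a18 stay on the same side of 0, while those of Slc25a23, Slc25a36 and Slc25a13 spread to both sides.

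Pairs of carriers lie side by side on the chromosomes, and 5 such pairs had brightest probes within 100 kb of each other. The X-linked pair pointed in opposite directions: Slc25a43 was at 1.49 or more and Slc25a5 at -1.46, with 23.1 kb between their probes. Ucp3 and Ucp2, with 17.4 kb between probes, were both higher in VZ/SVZ, at 1.88 and 2.15. On chromosome 17, Slc25a41 (-0.05 ± 0.34) lay within its technical error of 0, beside Slc25a23 at -1.58. Slc25a29 (-0.30) and Slc25a47 (-0.44) on chromosome 12 were both below 0 and within 2-fold. The partner of Slc25a24 on chromosome 3, Slc25a54, was not measured. The 250 bases before the RefSeq start of the X-linked pair, of the Ucp pair and of Slc25a18, the carrier with the largest absolute difference, are printed 5′ to 3′ on the gene's strand. Capitals mark the GC box GGGCGG or its reverse complement CCGCCC and, in Slc25a18, the TATA box TATAAA or TTTATA on the other strand.
Slc25a5 (chrX:36795347-36795596, GRCm38.p6, + strand): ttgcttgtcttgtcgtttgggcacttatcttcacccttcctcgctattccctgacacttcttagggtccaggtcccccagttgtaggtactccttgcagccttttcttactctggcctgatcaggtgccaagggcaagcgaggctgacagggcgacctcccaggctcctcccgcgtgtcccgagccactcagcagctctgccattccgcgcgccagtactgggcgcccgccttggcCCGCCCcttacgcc
Slc25a43 (chrX:36743382-36743631, GRCm38.p6, + strand): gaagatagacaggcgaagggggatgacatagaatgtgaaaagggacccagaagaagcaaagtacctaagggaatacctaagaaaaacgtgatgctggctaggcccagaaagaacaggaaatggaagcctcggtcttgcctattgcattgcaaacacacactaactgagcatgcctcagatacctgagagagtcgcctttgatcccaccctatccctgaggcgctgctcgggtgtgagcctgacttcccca
Ucp2 (chr7:100493108-100493357, GRCm38.p6, + strand): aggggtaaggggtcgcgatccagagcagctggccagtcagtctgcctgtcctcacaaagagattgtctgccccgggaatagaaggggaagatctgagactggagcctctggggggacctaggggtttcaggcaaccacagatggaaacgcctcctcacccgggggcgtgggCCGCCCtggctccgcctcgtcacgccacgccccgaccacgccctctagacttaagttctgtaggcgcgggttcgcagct
Ucp3 (chr7:100472741-100472990, GRCm38.p6, + strand): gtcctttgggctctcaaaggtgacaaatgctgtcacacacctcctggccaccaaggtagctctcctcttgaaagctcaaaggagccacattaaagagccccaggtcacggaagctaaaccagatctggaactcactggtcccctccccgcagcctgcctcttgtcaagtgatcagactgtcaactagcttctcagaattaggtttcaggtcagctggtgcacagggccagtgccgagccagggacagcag
Slc25a18 (chr6:120773518-120773767, GRCm38.p6, + strand): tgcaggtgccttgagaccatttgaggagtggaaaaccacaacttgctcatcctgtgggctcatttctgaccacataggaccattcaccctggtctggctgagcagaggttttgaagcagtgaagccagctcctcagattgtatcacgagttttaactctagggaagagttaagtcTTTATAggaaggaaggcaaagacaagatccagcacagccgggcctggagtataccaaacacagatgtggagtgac

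Slc25a5 and Ucp2 each held 1 GC box in this window and their neighbours Slc25a43 and Ucp3 none, and Slc25a18 was the only carrier of those searched with a TATA box. RefSeq's promoter table held a window for 39 of the 50 carriers, taking the first listed for each gene. A GC box on either strand was found in 25 of 39 (64.1%), against 42.7% of 17492 protein-coding genes, and a TATA box in 1 of 39 (2.56%) against 12.4%. The GC content of the windows had a median of 58.8% in the carriers and 55.2% in all protein-coding genes. A CCAAT box (CCAAT or ATTGG) was in 16 of 39 (41.0%) against 36.3%, the E-box CACGTG in 6 (15.4%) against 6.64%, the core NRF1 letters TGCGCA in 5 (12.8%) against 8.28% and the ETS letters CCGGAAG or CTTCCGG in 6 (15.4%) against 9.13%. The letters AAGGTCA or TGACCTT of the ERR site were in 1 (2.56%) against 3.58%. GC boxes were in 3 of the 5 windows of carriers higher in VZ/SVZ and in 5 of the 8 of carriers higher in the neurosphere. A match is a run of letters in this window and not a shown binding site.

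The carriers were set beside 3 gene sets that resemble them. The 95 measured respiratory chain subunits had a median of -0.76, with 14 past 2-fold towards the neurosphere and 1 towards VZ/SVZ. The 78 mitochondrial ribosomal proteins had a median of -0.66, with 13 past 2-fold, all of them towards the neurosphere. Past 2-fold towards the neurosphere with quantile normalization were 4 respiratory subunits and 7 ribosomal proteins, and with normexp 11 and 5. Both sets lay below 0 in 94.7% and 96.2% of their genes, against 68.9% of the carriers. The 266 measured solute carriers of other families had a median of 0.09, with 18.4% past 2-fold towards VZ/SVZ and 13.9% towards the neurosphere, or 49 and 37 genes. That order turned with quantile normalization, to 40 and 43 genes at a median of -0.08, with normexp, to 13 and 20, and over probes bright on both arrays, to 32 and 33 at a median of -0.04. The middle range of the carriers, from the 25th to the 75th percentile, ran from -0.66 to 0.11, that of the respiratory subunits from -0.91 to -0.61 and that of the other solute carriers from -0.64 to 0.70. These are descriptions of 2 arrays, and whether the sets differ was not tested.

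**Figure D4:**
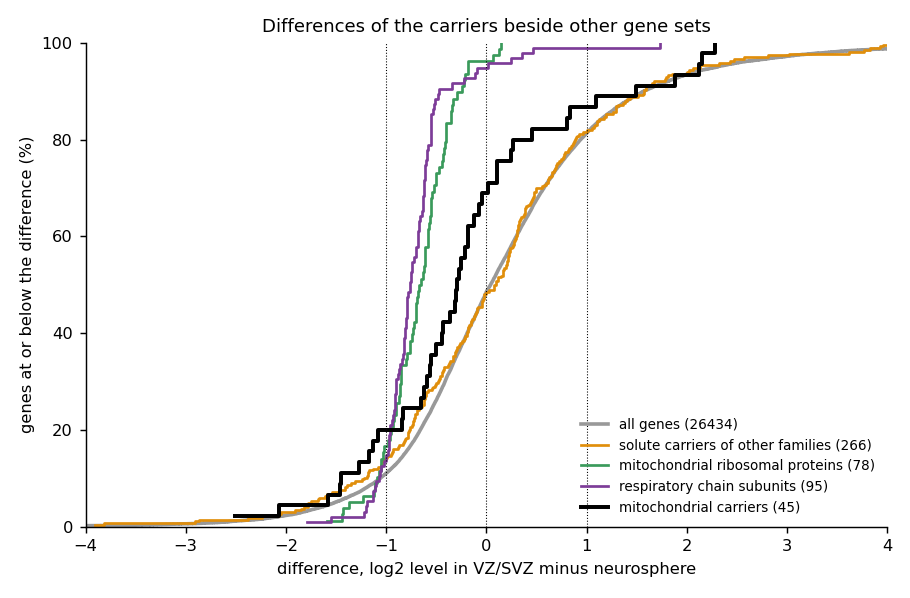
Cumulative share of genes (percent) at or below each difference (log2 level, VZ/SVZ minus neurosphere) for the 45 carriers, the 3 gene sets and all 26434 genes. By median, the carriers (-0.30) lie between the respiratory chain and mitochondrial ribosomal genes (-0.76 and -0.66) and the other solute carriers (0.09). The curves cross further down: 20.0% of the carriers lie at or below -1, against 14.7%, 16.7% and 13.9% of these sets, in that order. This depends on the probes used. With the median over probes, 6 of 45 carriers lay there, against 12 of 95, 12 of 78 and 31 of 266 in that order.

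Other transport proteins of the mitochondrial membranes had a median of -0.60, with 5 of 25 past 2-fold towards the neurosphere and 1 towards VZ/SVZ. The largest values were those of Mcub, a subunit that dampens the calcium uniporter (18.1 in the neurosphere and 111 in VZ/SVZ, 2.53 ± 0.22), Sfxn4, a sideroflexin (119 and 29.7, -2.10 ± 0.22), and Mpc1, a subunit of the mitochondrial pyruvate carrier (863 and 271, -1.77 ± 0.20). Enzymes that work with the shuttle, citrate and carnitine carriers had a median of -0.61, with 5 of 14 past 2-fold towards the neurosphere and 1 towards VZ/SVZ. Mdh1, the cytosolic malate dehydrogenase of the shuttle, was higher in the neurosphere, with 3339 there and 1434 in VZ/SVZ (-1.31 ± 0.20). Cpt1a, which makes the acylcarnitines that Slc25a20 carries, was the exception with 668 in the neurosphere and 1913 in VZ/SVZ (1.42 ± 0.20), while Slc25a20 itself lay within 2-fold.

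Enzymes of ornithine, proline, serine and folate metabolism had a median of -0.38, with 2 of 13 past 2-fold towards the neurosphere and 3 towards VZ/SVZ. Ass1, argininosuccinate synthase, was dim in the neurosphere (2.77) and had 242 in VZ/SVZ, at least 43.6-fold. Pycr1, which makes proline, was at 2.10 ± 0.21 with another probe at -0.49, and Mthfd2l, a mitochondrial folate enzyme, at -1.45 ± 0.21. Regulators of mitochondrial biogenesis and nutrient response had a median of 0.08, with 2 of 15 past 2-fold, both towards the neurosphere. Ppargc1a, the coactivator PGC-1α, had 143 and 53.1 (-1.52 ± 0.21), Ppara was at -1.11 ± 0.23 and Tfb1m at -0.92 ± 0.24. Iron and heme genes had a median of -0.30, with 2 of 16 at 2-fold on each side: Alad, an early heme enzyme (-2.15 ± 0.21), and Tfrc, the transferrin receptor, in the neurosphere, and Iscu, the iron-sulfur scaffold (2.04 ± 0.21, with another probe at -0.91), and Slc40a1, the iron exporter ferroportin (at least 2.86-fold), in VZ/SVZ.

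The cell type markers moved between the arrays as well. Of 10 neural stem and progenitor markers, 5 passed 2-fold towards the neurosphere and 1 towards VZ/SVZ, and all 10 were bright on both arrays. Nes (2294 in the neurosphere and 698 in VZ/SVZ) and Sox2 (1192 and 525) were among the 7 that lay below 0. Prom1 (43.6 and 94.9) was the 1 past 2-fold towards VZ/SVZ. All 5 fibroblast markers were higher in VZ/SVZ, and their summed level was 0.405 in the neurosphere, where Col1a1, Col3a1, Dcn and Lum were dim, against 99.0 in VZ/SVZ. Of 5 endothelial markers 4 were higher in VZ/SVZ (summed level 0.22 and 6.33), and of 5 mural markers 4 were (68.3 and 69.6, most of it from Acta2). Ependymal markers were higher in the neurosphere in 3 of 5 (9.43 and 1.85). Of 6 microglia markers 4 (Tyrobp, C1qa, P2ry12 and Cx3cr1) were well above background on neither array, while Csf1r (1568 and 1857) lay within 2-fold. Aif1 was dim in VZ/SVZ, with 6.76 in the neurosphere and 6.39 in VZ/SVZ. Of the neuron markers Rbfox3 and Slc17a7 were well above background on neither array. Nefm and Syt1 were dim in the neurosphere and higher in VZ/SVZ. Snap25 was at -0.09 by its brightest probe, and its 3 probes ran from -0.45 to 2.49. Of 5 neuroblast markers 2 passed 2-fold towards VZ/SVZ and 1 towards the neurosphere, and of 6 oligodendrocyte markers 1 did on each side. The part of these shifts in the carrier values was not tested.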

How the data were processed

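Each of 2 samples, grouped by title, gave total RNA for 1 Cy3-labelled Agilent array. The deposited scanner files hold intensity as written by Feature Extraction 11.5.1.1 (protocol GE1_1105_Oct12, probe positions on mm9), per the file headers; version 9.1 is what the submitters' processing notes give. Per the file headers, the processed signal was corrected by spatial and multiplicative detrending, with surrogate values standing in for the faintest signals; it was not scaled between arrays. In the authors' deposited table the intensity of a probe matched the scanner files (median ratio 1.00 to the scanner signal on each array). Both arrays share 1 slide and 1 scan time.

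Of 62976 spots per array, 3671 control spots and the spots marked as non-uniform or population outliers (79 and 142) were left out. Levels were log2 processed signals minus the 75th percentile over probes. On an array, depth is signal over background: 61.2% of probes were well above background in the neurosphere and 66.2% in VZ/SVZ, and the lowest signals among them were 5.2 and 5.93. Carriers kept their name in the files; other probes were named through RefSeq's gene table (GRCm38.p6) by accession (32991), symbol (10222) or synonym (520), or kept the file's name (12866). A gene took its brightest probe among those well above background on at least 1 array. Where 1 array was dim, its side took its own level or, where higher, the lowest level that counted as well above background. Bounds are open to this choice of floor.

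By rule every carrier is named; 1 carrier and 2 genes of other lists are not reported here singly but stay in the counts. Carriers at 2-fold and the largest of each class are given in full, and up to 3 genes of each other list. Tfrc and the markers named singly were chosen after their values were seen. The members and lists were chosen with earlier results of these data known. Alternatives were normexp (offset 50, limma 3.58.1 in R 4.3.3), quantile normalization, another scaling, the authors' values, flagged spots kept, other filters, the median over a gene's probes and a 1.5-fold size. The steps were tested on simulated arrays.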

Additional observations from a re-analysis of the deposited data

How the results depend on the processing

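With normexp background correction 3 carriers passed 2-fold towards VZ/SVZ (6 in the main setting) and 5 towards the neurosphere (9 in the main setting), beside 5.56% and 4.8% of all genes. At 1.5-fold 8 carriers passed towards VZ/SVZ and 14 towards the neurosphere, beside 29.6% and 22.8% of all genes. Over the 8 alternatives that give a median, the median difference of the carriers lay between -0.31 and -0.17. None of the 15 carriers past 2-fold changed direction under any alternative in which it had a value. Slc25a18, Slc25a23, Slc25a24, Slc25a37, Slc25a5 and Ucp2 stayed past 2-fold in all 8. The authors' values, flagged spots kept and the other scaling moved none of the 45 carriers by more than its technical error. Keeping only probes bright on both arrays moved none of 44, and leaving out the filter on dim probes moved 1. All these alternatives therefore say little about how stable a call is. The median over probes cannot move a carrier with 1 probe, such as Slc25a5 and Slc25a24. Slc25a10, Slc25a12, Slc25a15, Slc25a35, Slc25a42, Slc25a43 and Ucp3 were under 2-fold with normexp; the cause was not tested. Of 45 carriers, 17 moved by more than their technical error with normexp, 21 with quantile normalization and 14 when a gene took the median of its probes. With that median the counts were 7 towards VZ/SVZ and 6 towards the neurosphere: Slc25a13 and Slc25a53 passed 2-fold, while Slc25a11, Slc25a12, Slc25a25 and Slc25a35 no longer did. Without a filter on dim probes Slc25a31 passed. No paired analysis was possible because each group has 1 array. Faint carriers are limited by signal over background, and nothing here measures the spread between animals or cultures.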
